A study of Mus musculus with 12 samples.

Results

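Fatty acid oxidation and its transcriptional control by PPAR alpha were followed in mouse liver through 35 genes. Each was found by its symbol in the gene column of the array files, and all 35 are among the 34794 gene names there. The 12 arrays hold liver RNA of male ICR mice, an outbred strain, aged 5 weeks and adapted for 1 week. Each array is the only one of its group, so no group has replicates, and the errors below belong to effects averaged over pairs of arrays. Whether 1 animal or a pool stands behind an array is not stated. The groups are vehicle (water), ATRA, DEN, ATRA+DEN, a control siRNA and an siRNA against G0s2, each at day 2 and at day 7. DEN, diethylnitrosamine, a liver carcinogen that is activated by cytochrome P450 and alkylates DNA, was drunk at 80 mg/L, about 400 µg/day. ATRA, all-trans retinoic acid, the ligand of the retinoic acid receptors, was drunk at 30 mg/L, about 150 µg/day. The siRNA, 1.6 nmol with a lipid carrier, was injected into a vein. By the protocol that injection preceded DEN by a day, but the labels of the siRNA arrays name the siRNA alone, so whether those mice also drank DEN is not stated. G0s2 encodes an inhibitor of adipose triglyceride lipase, the enzyme that starts the release of fatty acids from lipid droplets. On 3 arrays of day 7 the title and the treatment characteristic name different treatments, and groups here follow the titles.

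PPAR alpha is a nuclear receptor that binds fatty acids and, paired with the retinoid X receptor, turns on genes of fatty acid uptake, oxidation and ketone body formation, above all in fasting. Fatty acids are activated to acyl-CoA, carried into mitochondria as acyl-carnitine by the carnitine shuttle and shortened there by beta-oxidation. Very long and branched chains are first shortened in peroxisomes, and enzymes of the Cyp4a family in the endoplasmic reticulum (microsomes) oxidise the far end of the chain, called omega-oxidation. In mouse liver the Cyp4a genes are among the most responsive targets of PPAR alpha.

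The microsomal Cyp4a genes were among the most variable between arrays, and probes of Cyp4a10 and Cyp4a31 are near copies of each other, which bears on every value of these genes. The brightest probe of Cyp4a10 (chr4:115206200-115206259, mm9) and that of Cyp4a31 (chr4:115251553-115251612) are identical at 44 of the 47 bases over which they overlap. A second probe of Cyp4a10 (chr4:115198463-115198522) and one of Cyp4a31 (chr4:115243923-115243982) are identical at 54 of 60 bases. The 30 bases of each probe with the most differences are given, with the bases that differ within a pair in capitals.
Cyp4a10, A_51_P254895: ccctcctttctgcaataaagTtccCagtgt
Cyp4a31, A_55_P2050628: ccctcctttctgcaataaagGtccAagtgt
Cyp4a10, A_55_P2092030: accttCcctgatggaCgCtctttaccCaaa
Cyp4a31, A_55_P1952399: accttTcctgatggaTgTtctttaccTaaa
In the first pair 2 of the 30 bases differ and in the second pair 4. RNA of one gene can therefore be read in part by a probe of the other, and values of Cyp4a10 and Cyp4a31 are reported as uncertain between the 2 genes.

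Since the genes share a regulator, their promoters were searched for its element. PPAR alpha binds DNA at a repeat of AGGTCA with 1 base between, written AGGTCANAGGTCA. RefSeq's promoter table (build GRCm38.p6) held 30 promoters of 27 of the genes, and the 250 bases before each start were searched for this motif on both strands, with at most 2 mismatches at its 12 fixed bases. No promoter was searched for Cyp4a10, Cyp4a14, Cyp4a31, Vnn1, Angptl4, Cpt1b, Acaa2 and Decr1, so nothing is known here of an element in the Cyp4a promoters. A match was found in 4 of the 30, those of Fabp1, Creb3l3, Cd36 and Acot4, and in 3.24% of the 32841 promoters searched. The match in Fabp1 has 1 mismatch, a count met by 0.484% of all promoters, and the other matches have 2. They are given as 60 bases each, 5′ to 3′ in the direction of the gene, with the match in capitals.
Fabp1 promoter, chr6:71199789-71199848, strand +: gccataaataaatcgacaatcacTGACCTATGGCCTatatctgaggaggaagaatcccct
Creb3l3 promoter, chr10:81092764-81092823, strand -: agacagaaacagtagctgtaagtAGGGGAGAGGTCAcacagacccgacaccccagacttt
Cd36 promoter, chr5:17835923-17835982, strand -: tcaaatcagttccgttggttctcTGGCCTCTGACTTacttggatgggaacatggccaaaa
Acot4 promoter, chr12:84038319-84038378, strand +: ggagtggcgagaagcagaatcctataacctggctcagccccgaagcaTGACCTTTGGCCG
A match is a description of these letters and not a binding site.

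The arrays were first checked against their labels. Levels are log2 processed intensities minus the 75th percentile of the array, so 0 is that percentile, and a level is set only against that of the same probe on other arrays. G0s2 read 3.84 with control siRNA and 1.99 with G0s2 siRNA at day 2, and 3.45 and 2.26 at day 7, lower with its siRNA on both days. Cyp26a1, a retinoic acid target, read from 4.34 to 7.10 on the 4 arrays titled with ATRA and from 0.42 to 2.38 on the others. Cdkn1a, a p53 target, read from 3.39 to 6.83 on the arrays titled with DEN, from 1.12 to 2.84 on those titled vehicle or ATRA, and from 3.37 to 6.82 on the siRNA arrays. The share of probes called well above background, the limit of detection used here, was 41.0% to 50.7% by array, and no probe was saturated. All 6 measured hepatocyte markers were above background on all 12 arrays. The control siRNA array of day 2 stood apart. All 5 Kupffer cell (liver macrophage) markers were highest there, with a summed level of 7.86 against 7.25 for G0s2 siRNA of day 2 and 5.44 to 6.26 elsewhere. Female-biased liver genes were also high there, such as A1bg at 4.86 against -5.90 to -2.45 elsewhere, while the Y-linked Ddx3y and Eif2s3y were above background on all 12 arrays. The vehicle array of day 2 alone held the pancreatic genes Cela3b (1.69), Cpa1 (2.49) and Pnlip (2.01) above background. In bulk liver, fewer cells of a type and less RNA per cell cannot be told apart. At day 2 the siRNA arrays were alone on slide 2 and the other arrays on slide 1. At day 7 vehicle and DEN were on slide 3, and the siRNA arrays shared slide 4, scanned on another day, with ATRA and ATRA+DEN. A difference between siRNA arrays and arrays of another slide cannot be told apart from slide.

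All 35 genes were well above background on at least 2 arrays and were tested, and 30 were above background on all 12. The exceptions were Fgf21 (3 arrays), Acot2 (8), Cyp4a14 (9), Vnn1 (9) and Acot3 (11). Over the 12 arrays a gene of the 35 had a median range of 1.46 (log2), against 1.39 for all 21204 genes tested. Of the 35, 9 ranged by less than 1 and 11 by 2 or more. The widest ranges were those of Cyp4a14 (8.83), Acot3 (5.75), Fgf21 (3.88), Cyp4a10 (3.48) and Cyp4a31 (3.39), and the narrowest was that of Cpt2 (0.45), the inner-membrane enzyme of the carnitine shuttle. The mitochondrial genes ranged from 0.64 (Acadvl) to 1.66 (Hadha) and the peroxisomal genes from 0.78 (Hsdl2) to 1.68 (Pex11a). The heat map of levels by array shows a shift between days in the mitochondrial and peroxisomal genes and large differences between single arrays in the microsomal genes.

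**Figure D1:**
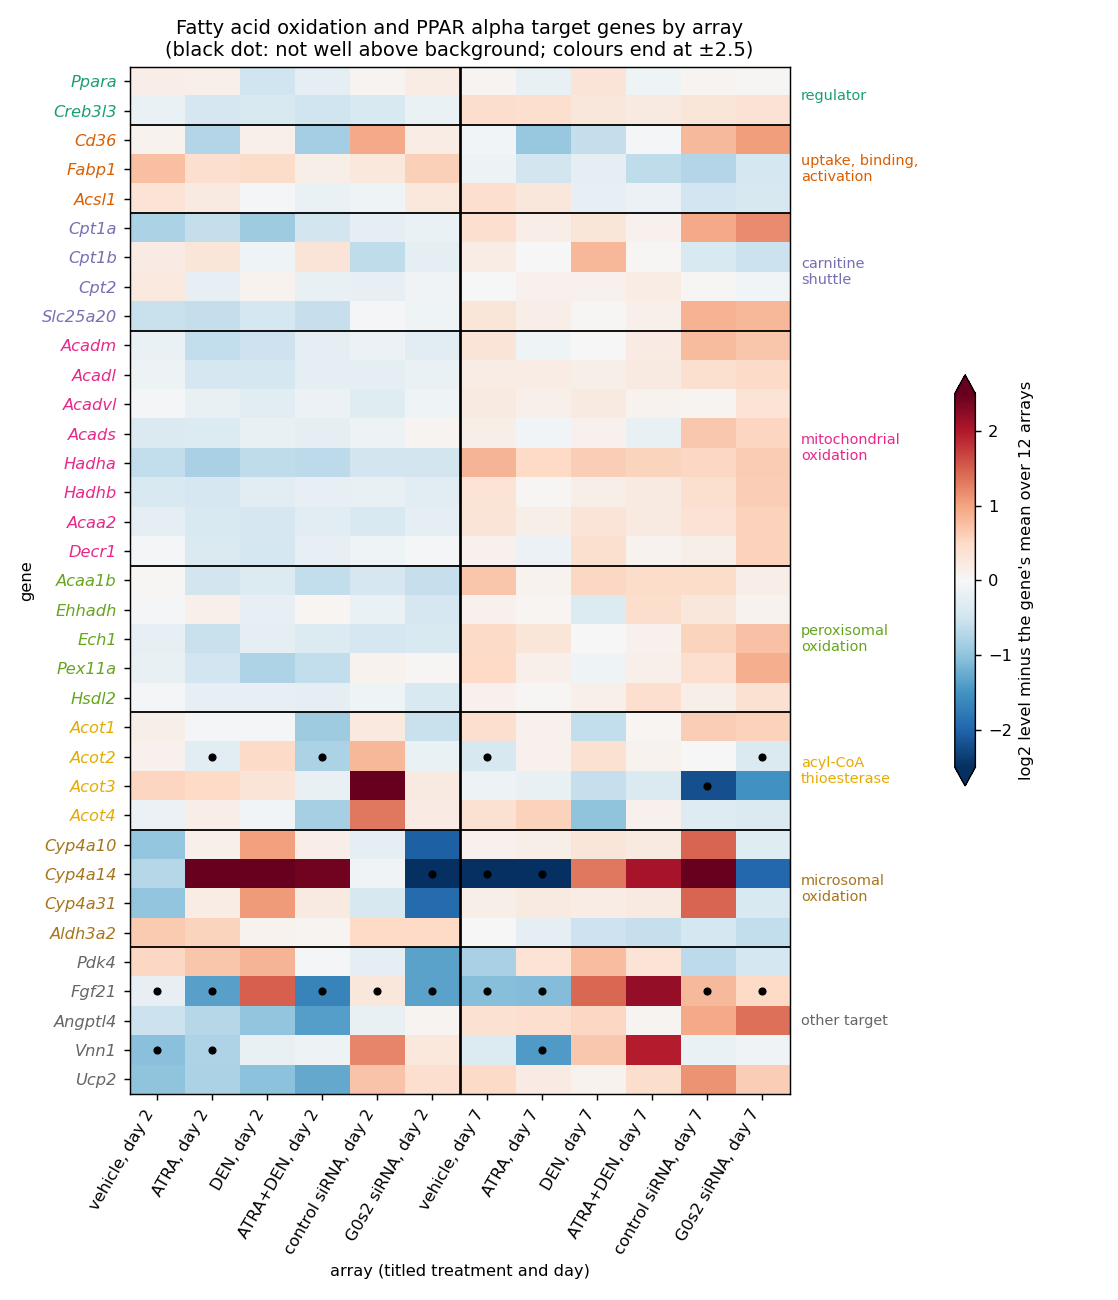
Level of each of the 35 genes (rows, by step) on each of the 12 arrays (columns), as log2 level minus the mean of the gene over the arrays, with colours ending at ±2.5 and dots where the gene was not well above background. The 8 mitochondrial genes are higher on the arrays of day 7, while Cyp4a14 ranges over 8.83 between arrays.

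Among the regulators, the receptor itself varied little by its brightest probe, with a range of 0.81 over the arrays. Ppara read 5.58 in vehicle, 5.54 in ATRA, 4.91 in DEN, 5.16 in ATRA+DEN, 5.47 under control siRNA and 5.59 under G0s2 siRNA at day 2, and 5.47 in vehicle, 5.22 in ATRA, 5.72 in DEN, 5.29 in ATRA+DEN, 5.48 under control siRNA and 5.43 under G0s2 siRNA at day 7. By this probe its lowest level was in DEN and its highest in DEN too, at day 2 and day 7 respectively, and the days overlapped. Probe A_55_P2071596 read 4.29 in vehicle and 3.33 in DEN at day 2, and probe A_55_P2071601 read 4.56 and 3.67. Both were highest in vehicle of day 2, and A_55_P2071601 was lowest, at 3.14, under control siRNA of day 7. Creb3l3, a liver transcription factor of the endoplasmic reticulum that acts with PPAR alpha in fasting, read 7.15 in vehicle, 6.90 in ATRA, 6.94 in DEN, 6.81 in ATRA+DEN, 6.93 under control siRNA and 7.15 under G0s2 siRNA at day 2, and 7.75 in vehicle, 7.73 in ATRA, 7.60 in DEN, 7.54 in ATRA+DEN, 7.62 under control siRNA and 7.68 under G0s2 siRNA at day 7. Every day-7 array lay above every day-2 array.

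In uptake and the carnitine shuttle, the genes differed in what set their levels apart. Cd36, a fatty acid transporter, read -0.97 in vehicle, -1.79 in ATRA, -0.93 in DEN, -1.90 in ATRA+DEN, -0.11 under control siRNA and -0.87 under G0s2 siRNA at day 2, and -1.13 in vehicle, -2.0 in ATRA, -1.65 in DEN, -1.08 in ATRA+DEN, -0.24 under control siRNA and -0.02 under G0s2 siRNA at day 7. Its highest levels were on siRNA arrays and its lowest in ATRA of day 7 and ATRA+DEN of day 2. Cpt1a, the liver form of the enzyme that makes acyl-carnitine and the rate-limiting step of mitochondrial oxidation, read 3.73 in vehicle, 3.92 in ATRA, 3.63 in DEN, 4.06 in ATRA+DEN, 4.28 under control siRNA and 4.36 under G0s2 siRNA at day 2, and 4.95 in vehicle, 4.69 in ATRA, 4.83 in DEN, 4.64 in ATRA+DEN, 5.48 under control siRNA and 5.71 under G0s2 siRNA at day 7. All day-7 arrays were above all day-2 arrays. On each day both siRNA arrays were the highest, which cannot be told apart from slide at day 2, or against vehicle and DEN at day 7. Cpt1b, the muscle form of that enzyme, read -2.10 in vehicle, -1.99 in ATRA, -2.40 in DEN, -1.98 in ATRA+DEN, -2.94 under control siRNA and -2.53 under G0s2 siRNA at day 2, and -2.11 in vehicle, -2.30 in ATRA, -1.48 in DEN, -2.27 in ATRA+DEN, -2.68 under control siRNA and -2.83 under G0s2 siRNA at day 7. The 4 siRNA arrays were its lowest. Of the muscle markers, Ckm and Myh4 were above background on 0 of 12 arrays, Acta1 on 1 and Tnnt3 on 3.

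Of the peroxisomal and thioesterase genes, Ehhadh, the bifunctional enzyme of peroxisomal beta-oxidation, read 4.53 in vehicle, 4.67 in ATRA, 4.35 in DEN, 4.61 in ATRA+DEN, 4.39 under control siRNA and 4.13 under G0s2 siRNA at day 2, and 4.66 in vehicle, 4.60 in ATRA, 4.21 in DEN, 5.00 in ATRA+DEN, 4.84 under control siRNA and 4.63 under G0s2 siRNA at day 7. It stayed within 0.86 over all arrays. Acot1, a cytosolic enzyme that splits acyl-CoA back to fatty acid, read 4.01 in vehicle, 3.85 in ATRA, 3.82 in DEN, 2.98 in ATRA+DEN, 4.11 under control siRNA and 3.31 under G0s2 siRNA at day 2, and 4.30 in vehicle, 3.97 in ATRA, 3.26 in DEN, 3.92 in ATRA+DEN, 4.48 under control siRNA and 4.45 under G0s2 siRNA at day 7. The lowest level was in ATRA+DEN of day 2, followed by DEN of day 7 and G0s2 siRNA of day 2.

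Of the microsomal genes the 3 of the Cyp4a family spread widely, and Aldh3a2 ranged by 1.27. Cyp4a10 read 2.34 in vehicle, 3.44 in ATRA, 4.33 in DEN, 3.47 in ATRA+DEN, 3.06 under control siRNA and 1.27 under G0s2 siRNA at day 2, and 3.41 in vehicle, 3.45 in ATRA, 3.61 in DEN, 3.52 in ATRA+DEN, 4.75 under control siRNA and 3.00 under G0s2 siRNA at day 7. At day 2 DEN was the highest and G0s2 siRNA the lowest, while at day 7 control siRNA was the highest, G0s2 siRNA the lowest and the other arrays lay between 3.41 and 3.61. Cyp4a31 read 2.25 in vehicle, 3.41 in ATRA, 4.30 in DEN, 3.45 in ATRA+DEN, 2.83 under control siRNA and 1.30 under G0s2 siRNA at day 2, and 3.37 in vehicle, 3.46 in ATRA, 3.41 in DEN, 3.45 in ATRA+DEN, 4.69 under control siRNA and 2.86 under G0s2 siRNA at day 7. It had the same highest and lowest array on each day as Cyp4a10. Cyp4a14 read -1.18 in vehicle, 2.08 in ATRA, 3.57 in DEN, 1.93 in ATRA+DEN, -0.57 under control siRNA and -4.88 under G0s2 siRNA at day 2, and -5.27 in vehicle, -4.66 in ATRA, 0.84 in DEN, 1.58 in ATRA+DEN, 3.28 under control siRNA and -2.44 under G0s2 siRNA at day 7. It was not above background in G0s2 siRNA of day 2 or in vehicle and ATRA of day 7, and the arrays with DEN and with control siRNA were the highest of day 7.

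The other PPAR alpha targets followed no common order. Pdk4, the kinase that shuts off pyruvate dehydrogenase and spares glucose, read 0.64 in vehicle, 0.82 in ATRA, 0.98 in DEN, 0.08 in ATRA+DEN, -0.09 under control siRNA and -1.22 under G0s2 siRNA at day 2, and -0.68 in vehicle, 0.46 in ATRA, 0.90 in DEN, 0.46 in ATRA+DEN, -0.52 under control siRNA and -0.32 under G0s2 siRNA at day 7. DEN was the highest array of each day. Fgf21, a fasting hormone made by liver, read -4.45 in vehicle, -5.60 in ATRA, -2.74 in DEN, -5.92 in ATRA+DEN, -3.95 under control siRNA and -5.57 under G0s2 siRNA at day 2, and -5.31 in vehicle, -5.32 in ATRA, -2.81 in DEN, -2.04 in ATRA+DEN, -3.43 under control siRNA and -3.75 under G0s2 siRNA at day 7. It was above background only in DEN of both days and in ATRA+DEN of day 7. Angptl4, a secreted inhibitor of lipoprotein lipase, read 4.86 in vehicle, 4.70 in ATRA, 4.42 in DEN, 4.02 in ATRA+DEN, 5.22 under control siRNA and 5.47 under G0s2 siRNA at day 2, and 5.79 in vehicle, 5.83 in ATRA, 5.93 in DEN, 5.48 in ATRA+DEN, 6.36 under control siRNA and 6.78 under G0s2 siRNA at day 7. On both days G0s2 siRNA was highest and control siRNA second. Vnn1, the pantetheinase, which is strongly induced by PPAR alpha ligands, read -3.43 in vehicle, -3.17 in ATRA, -2.57 in DEN, -2.52 in ATRA+DEN, -1.16 under control siRNA and -2.12 under G0s2 siRNA at day 2, and -2.73 in vehicle, -3.81 in ATRA, -1.71 in DEN, -0.42 in ATRA+DEN, -2.56 under control siRNA and -2.47 under G0s2 siRNA at day 7. On each day every DEN-titled array was above the matching array without DEN, and vehicle of day 2 and both ATRA arrays were not above background.

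**Figure D2:**
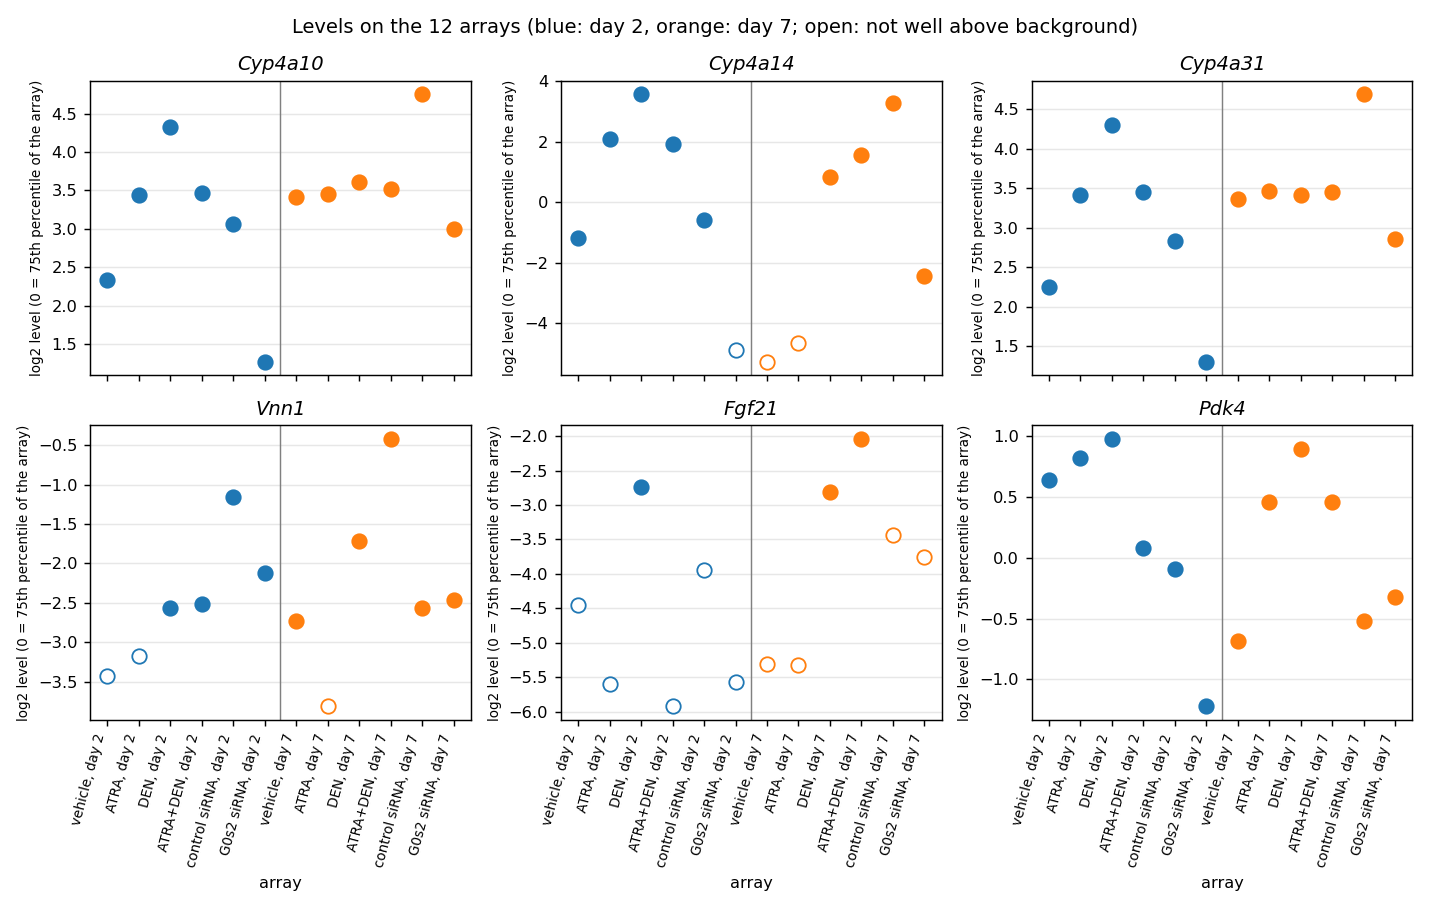
Levels of Cyp4a10, Cyp4a14, Cyp4a31, Vnn1, Fgf21 and Pdk4 on the 12 arrays (log2, 0 is the 75th percentile of the array; blue for day 2, orange for day 7, open where not well above background). Cyp4a14 reads 3.28 in control siRNA and -2.44 in G0s2 siRNA at day 7, and Fgf21 is filled on 3 arrays.

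The siRNA arrays ask what lowering G0s2 changes in these genes. The 3 Cyp4a genes were lower with G0s2 siRNA than with control siRNA on both days, and no other gene of the 35 was lower by 2-fold or more in the mean with the same sign on both days. The mean log2 difference was -5.02 (SE 1.53) for Cyp4a14, -1.77 (SE 0.49) for Cyp4a10 and -1.68 (SE 0.52) for Cyp4a31, lower in 2 of 2 pairs each. The standard errors come from a fit shared with DEN, so they also hold the spread between DEN pairs. These 3 of 35 compare with 1.53% of all genes that were 2-fold or more lower with the same sign in both pairs. None passed the test over all genes (limma, Benjamini-Hochberg, adjusted p = 0.6976 for each of the 3), as 0% of the 21204 genes did. At an unadjusted p under 0.05, 4 of the 35 differed, Fabp1 and these 3, against 6.77% of all genes.

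Within single days, which carry no test, Cyp4a10 was 3.44-fold lower at day 2 and 3.38-fold lower at day 7. Cyp4a31 was 2.89-fold and 3.56-fold lower. Cyp4a14 was at least 6.85-fold lower at day 2, where G0s2 siRNA was not above background, and 52.94-fold lower at day 7. On the log2 scale Cyp4a10 differed by -1.78 at day 2 and -1.76 at day 7, Cyp4a31 by -1.53 and -1.83, and day 7 does not use the control siRNA array of day 2 that stood apart. Of 8 tested female-biased genes, 5 were also lower with G0s2 siRNA on both days. Cyp2b9 read 1.89 with control and -2.59 with G0s2 siRNA at day 2 and 1.27 and -1.66 at day 7, and Cyp3a44 read 2.73 and 0.43, then -1.66 and -3.87. Both were higher in control siRNA of day 7 than on any other day-7 array, while the summed level of the list there was 8.55 with control and 9.14 with G0s2 siRNA. The part of these genes in the Cyp4a values was not tested. At day 7 the control siRNA array held the highest Cyp4a10 and Cyp4a31 of all arrays, while the G0s2 siRNA array, at 3.00 for Cyp4a10, was nearer to vehicle at 3.41. At day 2 the G0s2 siRNA array was the lowest of all, at 1.27 for Cyp4a10 against 2.34 in vehicle. On both days the vehicle array lay on another slide than the siRNA arrays. The probes did not all follow. For Cyp4a10 its 3 probes gave -1.77, -2.61 and -0.37, and for Cyp4a31 they gave -1.68, 0.34 and -2.02, and the mean of the probes of Cyp4a31 was -1.12. The brightest probes, the first pair of near copies, gave -1.77 and -1.68, and the second pair gave -0.37 and 0.34.

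**Figure D3:**
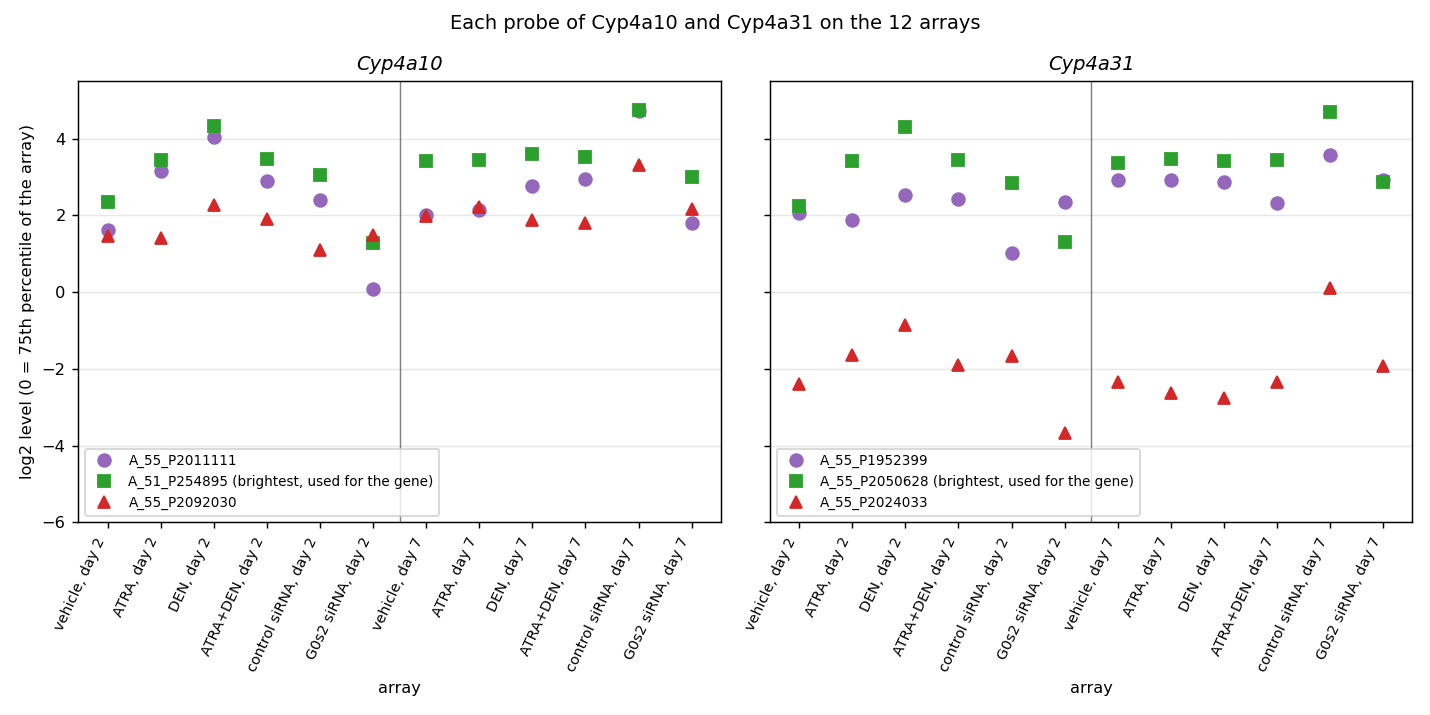
Level of each of the 3 probes of Cyp4a10 and of Cyp4a31 on the 12 arrays (log2, 0 is the 75th percentile of the array); levels are compared within a probe only. The brightest probe of each gene is lower in G0s2 siRNA than in control siRNA on both days, and probe A_55_P1952399 of Cyp4a31 is higher at day 2.

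The thioesterases Acot1 to Acot4 were all below 0 in the mean with G0s2 siRNA. Acot3, a peroxisomal member, had -1.32 (SE 0.83), with -3.32 at day 2 and 0.68 at day 7. Its day-2 value rests on the control siRNA array that stood apart, where Acot3 read 2.32 against -1.41 to -0.70 on the other day-2 arrays. Acot2, the mitochondrial member, had -0.68 and Acot4, a peroxisomal one, -0.57, and without the day-2 pair Acot4 stood at -0.04 and Acot1 at -0.03. Kupffer cell and female-biased genes were high on that array, and their part in these values was not tested. At day 2, 7 of the 35 genes were 2-fold or more lower with G0s2 siRNA against 2.67% of all genes, namely the 3 Cyp4a genes, Acot3, Acot4, Pdk4 (-1.13) and Fgf21, which was not above background on any siRNA array. At day 7 the number was 3 against 4.14%, the Cyp4a genes alone. No gene of the 35 was 2-fold or more higher on either day, against 2.66% and 4.35% of all genes.

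The beta-oxidation genes differed little with G0s2 siRNA. The 8 mitochondrial genes lay between -0.10 and 0.25, with 7 above 0, and the 5 peroxisomal genes between -0.24 and 0.21. The median of the 35 was -0.01, against 0.06 for all genes. Of 78 other tested genes of the pathway, fixed as a list, 0 passed in either direction, 54 were above 0 and 24 below, with a median of 0.09, where 59.8% of all genes were above 0. Those of 1 sign on both days were led by Cyp4a32 (-1.42, SE 0.45), another omega-hydroxylase of the family, and the male-biased omega-hydroxylase Cyp4a12a (1.20, SE 0.55). Cyp4a12a rested on day 2 (2.35, against 0.06 at day 7), where the control siRNA array was its lowest at 4.04. Next were Ppargc1a (-0.64), a coactivator of PPAR alpha, and the fatty acid transporter Slc27a2 (0.48).

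DEN asks what the carcinogen changes in these genes with and without ATRA, over 4 pairs of arrays. Cyp4a14, Fgf21 and Vnn1 had the largest mean differences, all above 0, and none passed. Fgf21 met the filter of 2 arrays above background only through arrays with DEN, so its place here is not evidence about DEN. Cyp4a14 had a mean difference of 4.23 (SE 1.08, limma adjusted p = 0.2806), higher in 3 of 4 pairs. It was 26.74-fold higher at day 2 without ATRA, at least 14.6-fold at day 7 without ATRA and at least 25.3-fold at day 7 with ATRA, and 1.11-fold lower at day 2 with ATRA. At day 2 ATRA alone already stood at 2.08, and DEN added to it gave 1.93. Vnn1 had 1.48 (SE 0.48, adjusted p = 0.3433), higher in 4 of 4 pairs, the 1 gene of the 35 that was 2-fold or more higher in the mean with 1 sign, against 0.835% of all genes. Since it was above background on 1 of the 4 arrays without DEN, 3 of the differences are bounds, at least 1.83-fold and 1.58-fold at day 2 without and with ATRA and at least 6.29-fold at day 7 with ATRA. Without that last pair its mean was 0.85, and with normexp background correction it was 0.47.

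Fgf21 was above background on 3 of 4 arrays with DEN and on 0 of 4 without, with means of -3.38 and -5.17. By the detection limit of each array no fold can be given for the mean, and in single pairs it was at least 1.70-fold higher at day 2 without ATRA, 1.17-fold at day 7 without and 2.05-fold at day 7 with ATRA. Cyp4a10 (0.57, SE 0.34) and Cyp4a31 (0.53, SE 0.37) rested on 1 pair, day 2 without ATRA, where they were 3.98-fold and 4.14-fold higher. Without that pair their means were 0.10 and 0.03. The 3 probes of Cyp4a10 gave means over all pairs of 0.57, 0.93 and 0.20, and those of Cyp4a31 0.53, 0.09 and 0.28. At day 2 without ATRA the second pair of near copies differed less. Its Cyp4a10 probe read 1.45 in vehicle and 2.26 in DEN, and its Cyp4a31 probe 2.05 and 2.52.

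Lower in the mean with DEN were Acot4 (-0.69, SE 0.28), Acot1 (-0.54, SE 0.22) and Aldh3a2 (-0.48, SE 0.09), the microsomal dehydrogenase that turns fatty aldehydes into acids. Aldh3a2 had the smallest adjusted p of the 35 (0.2363) and differences from -0.57 to -0.34 in the 4 pairs. The 7 genes below 0 in every pair were Creb3l3, Fabp1, Acsl1, Pex11a, Acot1, Acot3 and Aldh3a2, against 12.6% of all genes, and they are named after their values were seen. Acsl1, which activates long-chain fatty acids, differed by -0.64 to -0.37 in the 4 pairs, and Fabp1, the liver fatty acid binding protein, by -0.31 to -0.12. Under quantile normalization Fabp1 was -0.06.

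In the mean over the 4 pairs the 8 mitochondrial genes lay between -0.07 and 0.08 with DEN, but the pairs went opposite ways. At day 2, 6 of the 8 were lower without ATRA (median -0.23) and all 8 were higher with ATRA (median 0.16). At day 7, 7 were lower without ATRA (median -0.03) and 6 were higher with ATRA (median 0.07). The medians of all genes in these pairs lay between -0.04 and -0.00. The median of the 35 was -0.02, the same as that of all genes, with 14 above 0 and 21 below, where 45.8% of all genes were above 0. By limma 0 of the 35 passed, as 0% of all genes did, and 6 had an unadjusted p under 0.05 against 12.3% of all genes. Among the 6 is Fgf21, which was tested only because of arrays with DEN. Of 78 other pathway genes 0 passed, 29 were above 0 and 49 below. With 1 sign throughout the 4 pairs and a signal above background on all arrays, the largest were the monoglyceride lipase Mgll (-0.83, SE 0.15), Cyp4f16 (0.80, SE 0.31) and the coactivator subunit Med1 (-0.56, SE 0.17). The alternative grouping of day 7 by the treatment characteristic gave means of 1.49 for Cyp4a14, 0.43 for Vnn1 and 0.10 for Acot4.

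**Figure D4:**
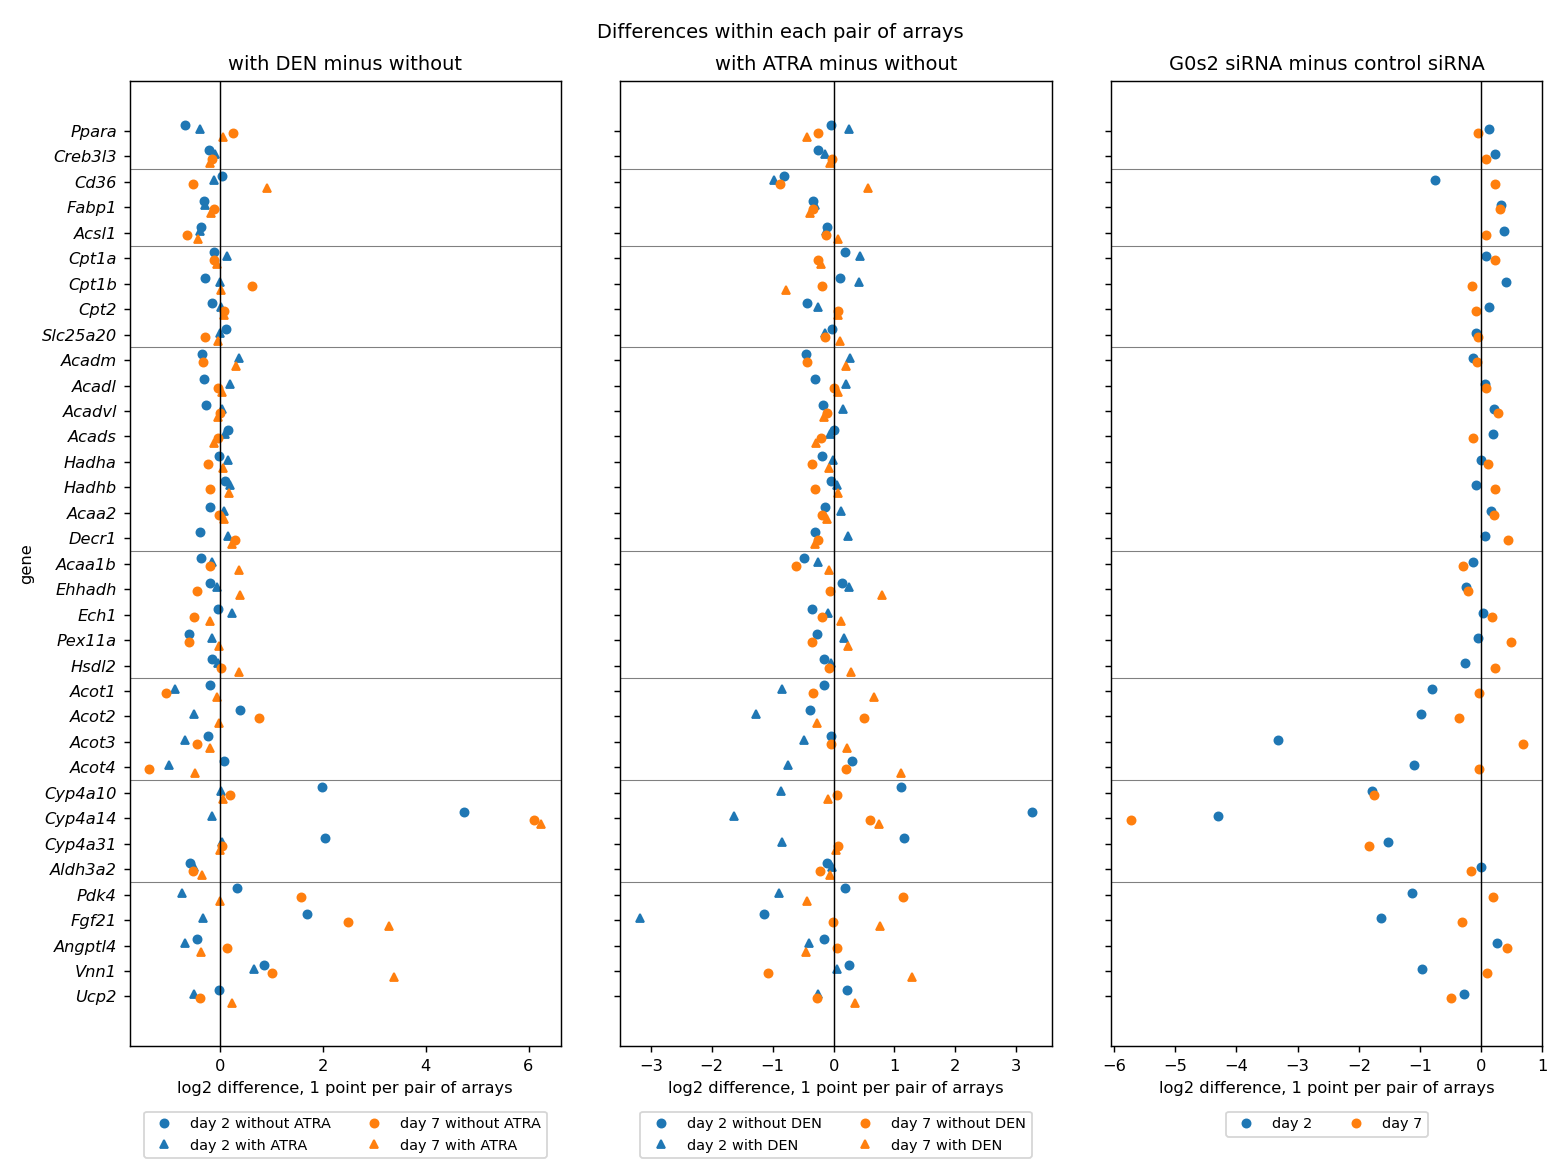
Log2 difference of each of the 35 genes in each pair of arrays, with DEN minus without, with ATRA minus without and G0s2 siRNA minus control siRNA (blue for day 2, orange for day 7; triangles for pairs with the other agent). The Cyp4a genes lie left of 0 on both days for G0s2 siRNA, and Cyp4a14 lies far right of 0 in both day-7 pairs for DEN, where the arrays without DEN were not above background and only at least 14.6-fold and 25.3-fold can be stated.

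ATRA asks what the retinoid does to the same genes, over 4 pairs that share arrays with the DEN pairs. Most mean differences were small and below 0, but not in every pair. Of the 35 genes 26 were below 0, against 49.3% of all genes, including all 8 mitochondrial genes, which lay between -0.16 and -0.00. In single pairs 6 of the 8 mitochondrial genes were higher with ATRA at day 2 with DEN (median 0.14), and 19 of the 35 genes were higher at day 7 with DEN (median 0.07). The median of the mean differences was -0.09, against 0.00 for all genes. By limma 0 passed, as 0% of all genes did, and 2 had an unadjusted p under 0.05 against 5.81% of all genes. These were Fabp1 (-0.34, SE 0.10, adjusted p = 0.7984) and Acaa1b, a peroxisomal thiolase (-0.36, SE 0.13), each lower in 4 of 4 pairs. Fabp1 was the more even, from -0.39 to -0.30.

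Larger means with ATRA were uneven between pairs. Cd36 (-0.53, SE 0.30) was lower in 3 pairs, by -0.97 to -0.82, and higher by 0.57 at day 7 with DEN. Cyp4a14 (0.74, SE 0.77) was 9.56-fold higher at day 2 without DEN and 3.10-fold lower at day 2 with DEN, and Cyp4a10 was 2.14-fold higher and 1.82-fold lower in the same pairs. Without the first of these pairs the mean of Cyp4a14 was -0.09. The Cyp4a10 folds are those of its brightest probe. In the same pairs its probe A_55_P2092030 read 1.45 without and 1.42 with ATRA, then 2.26 and 1.90. A_55_P2011111 read 1.63 and 3.16, then 4.05 and 2.90. Fgf21 was above background in DEN of day 2 and not in ATRA+DEN of that day, at least 1.88-fold lower. Acot2 (-0.36), Ehhadh (0.28) and Angptl4 (-0.24) complete the 8 largest. At day 7 each ATRA pair spans 2 slides, and with slide as a block, which leaves the day-2 pairs, Cd36 stood at -0.90, Cpt1a at 0.31 and Acot1 at -0.50. Of the other 78 pathway genes 0 passed, with 24 above 0 and 54 below. The largest with 1 sign in all pairs were Plin4 (-0.71, SE 0.13), a lipid droplet coat protein, the thioesterase Acot13 (-0.32), Cyp4f14 (-0.27) and the peroxisome import protein Pex13 (0.20).

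The interaction of DEN and ATRA, the DEN difference with ATRA minus that without, passed for 0 of the 35 genes by limma, as for 0% of all genes. At an unadjusted p under 0.05 there was 1 of 35 against 3.62%, the medium-chain acyl-CoA dehydrogenase Acadm (0.68, SE 0.21, adjusted p = 0.9997). Acadm was lower with DEN without ATRA, by -0.35 at day 2 and -0.33 at day 7, and higher with ATRA, by 0.37 and 0.31. All 5 peroxisomal genes were above 0, between 0.24 and 0.52. Of the 8 mitochondrial genes 7 were above 0, with a median of 0.23. Below 0 on both days and by 2-fold or more in the mean were Pdk4 (-1.33, SE 0.55), Cyp4a10 (-1.05, SE 0.66) and Cyp4a31 (-1.03, SE 0.74), 3 of 35 against 2.62% of all genes. Both Cyp4a values came from day 2, where the Cyp4a10 interaction was -1.96 against -0.14 at day 7. Cyp4a14 had -2.37 (SE 2.31), Vnn1 1.08 (SE 0.99), Acot2 -0.83 (SE 0.30) and Cd36 0.64 (SE 0.46). Cd36 changed sign between days. For Cyp4a14 at day 7 and Vnn1 at day 2 neither array without DEN was above background, so the sign there is unknown. Acot2 was above background on 8 arrays only, and with normexp background correction its value was -0.27. The median of the 35 was 0.09 against 0.03 for all genes. Of the 78 other pathway genes 0 passed, 57 were above 0 and 21 below, where 54.7% of all genes were above 0. The largest with 1 sign on both days were the lipid droplet gene Cidec (0.90), the peroxisomal reductase Decr2 (0.89) and Acsl3 (0.86).

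Day 7 was compared with day 2 over 6 pairs, 1 for each treatment. All 8 mitochondrial genes, 4 of 5 peroxisomal genes and 2 of 4 genes of the carnitine shuttle rose at day 7, while of the 8 microsomal and thioesterase genes Aldh3a2 alone passed, as lower. By limma 19 of the 35 genes passed, 17 higher and 2 lower, against 46.8% of all genes, of which 26.3% were higher and 20.5% lower. The median of the 35 was 0.40 against 0.11 for all genes, and 27 were above 0 against 56.7%. Day cannot be told apart from slide and scan day, because no slide and no scan day holds arrays of both days.

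All 8 mitochondrial genes rose, each in 6 of 6 pairs, by 0.36 (Acadvl, SE 0.09) to 1.22 (Hadha, SE 0.10, adjusted p = 0.0004374). Hadha, the alpha subunit of the trifunctional protein, which does the last 3 steps of long-chain beta-oxidation, read 1.92 to 2.28 on the day-2 arrays and 3.23 to 3.58 on those of day 7, with no overlap. Its partner Hadhb rose by 0.58 and the thiolase Acaa2 by 0.64. The dehydrogenases of long (Acadl), medium (Acadm) and short chains (Acads) rose by 0.54, 0.64 and 0.40, and Decr1, a reductase needed for unsaturated chains, by 0.39. In the carnitine shuttle Cpt1a rose by 1.05 (SE 0.13, adjusted p = 0.001321) and the carrier Slc25a20 by 0.77, while Cpt2 (0.12) and Cpt1b (0.05) did not pass. The second probe of Cpt1a gave 0.24. Of the peroxisomal genes the thiolase Acaa1b (0.79), the isomerase Ech1 (0.72), Pex11a (0.65), which drives peroxisome division, and Hsdl2 (0.40) rose, and Ehhadh (0.21) did not pass.

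Of the other genes Angptl4 rose by 1.25 (SE 0.11, adjusted p = 0.0004969), Ucp2, an uncoupling protein of the mitochondrial membrane, by 0.98 and Creb3l3 by 0.67. Ppara did not pass (0.06, SE 0.16), and its 3 probes gave 0.06, 0.13 and -0.53. The 2 genes that fell were Fabp1, by 0.87 (SE 0.09, adjusted p = 0.0008077), and Aldh3a2, by 0.79 (SE 0.11, adjusted p = 0.001663), each in 6 of 6 pairs. The 2 largest differences did not pass. Acot3 had -1.65 (SE 0.71), lower in 6 of 6 pairs, and -0.83 with an adjusted p = 0.02934 by limma without the control siRNA pair. Cyp4a14 had -1.27 (SE 1.36). Fgf21, with 0.93 (SE 0.58), did not pass either.

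**Figure D5:**
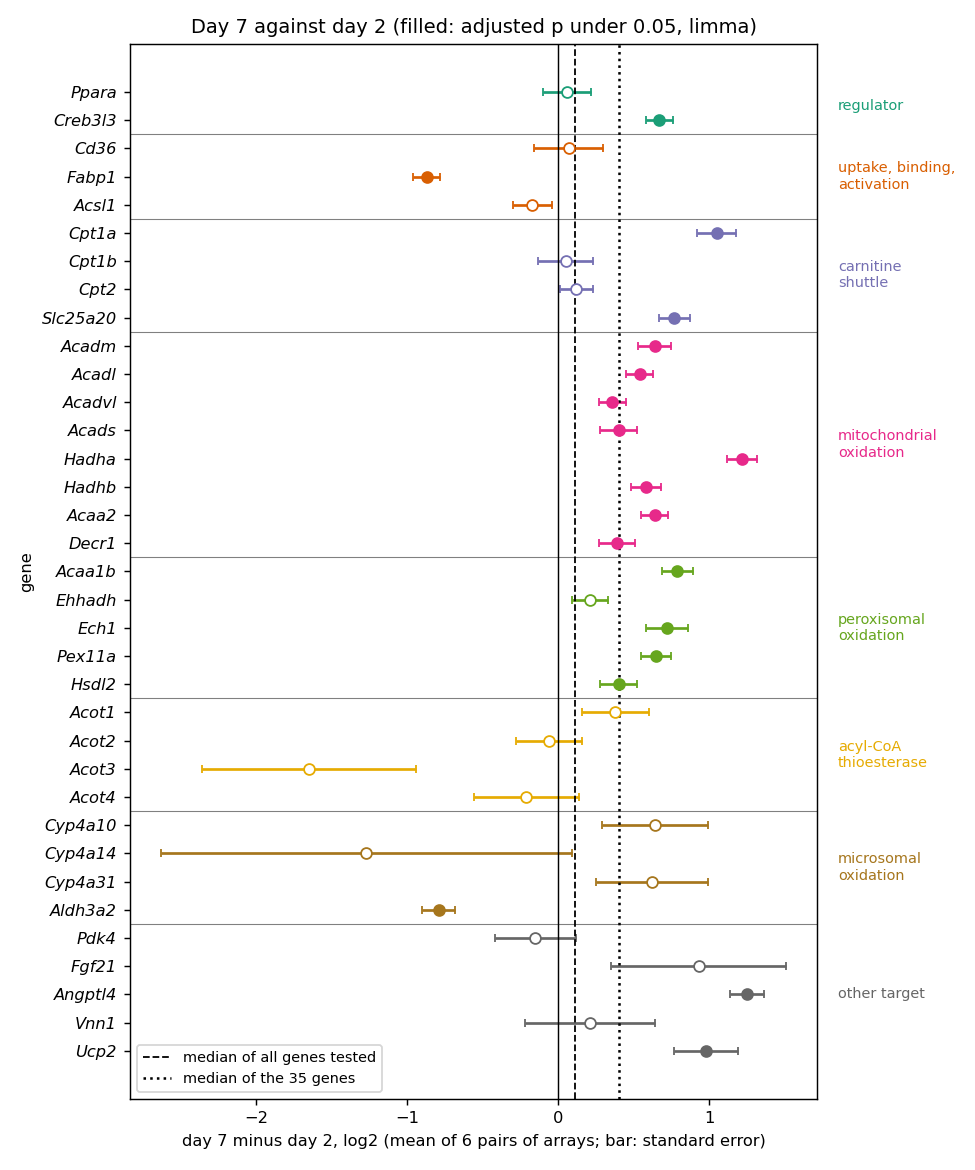
Day 7 minus day 2 for each of the 35 genes (log2, mean of 6 pairs of arrays, bars are standard errors, filled where the limma adjusted p is under 0.05), by step, with the medians of all genes tested and of the 35. The 8 mitochondrial points are filled and lie between 0.36 and 1.22, while Fabp1 and Aldh3a2 are filled on the left.

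The size of the day shift depends on the scaling. With the 75th percentile taken over probes detected on all arrays, the median of all genes moved by -0.25, to -0.14, and that of the 35 to 0.15, so the distance between them stayed at 0.29. Of all calls 56.1% were higher, against 28.5% with that scaling and 48.8% with quantile normalization. Under these scalings all 8 mitochondrial genes stayed above 0, but 5 and 4 of them passed. As higher, 13 and 12 of the 35 passed, against 2454 and 3862 of the 21204 genes. Of the 4 genes of the carnitine shuttle 2 and 3 stayed above 0, and 2 passed under each. Acsl1 passed as lower under both, at -0.42 and -0.44. Among the 8 arrays without siRNA 16 of the 35 passed. Across the alternatives run for day, 15 to 19 of the 35 passed, beside 7525 to 10992 of all genes.

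Genes other than the 35 moved with day as well. Of the 78 other pathway genes 28 passed as higher and 2 as lower, against 26.3% and 20.5% of all genes. Under the scaling to detected probes 12 and 5 passed, against 2454 and 6156 of the 21204 genes. The 6 with the largest rises were Cidec (1.92, SE 0.26), Lpin1 (1.92, SE 0.36), which encodes a phosphatidate phosphatase and coactivator of PPAR alpha, Cyp4a12a (1.30), Cyp4a12b (1.13, lost under that scaling and quantile normalization), Cyp4v3 (1.02) and Plin5 (0.96). The summed hepatocyte markers were lower at day 7 (12.22 to 12.45) than at day 2 (12.61 to 13.07), and those of T, B and NK cells too (2.82 to 3.37 against 3.99 to 4.37). Such a sum follows its brightest genes, and the hepatocyte markers did not move together. Alb, Ttr and Serpina1a were lower at day 7 in every pair. Apoa1 (7.59 to 8.17, then 8.08 to 8.94) and Ass1 (9.04 to 9.74, then 9.57 to 9.94) were higher in every pair. Cps1 differed in sign between pairs. Genes of fasting summed to 7.88 to 8.93 at day 2 and 8.88 to 9.33 at day 7, and clock genes to 5.08 to 6.20 and 5.92 to 6.49. The part of these in the day values was not tested. By array, G0s2 siRNA of day 7 held the highest level of 10 of the 35 genes and control siRNA of day 7 that of 7, against 19.4% and 9.37% of all genes.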

How the data were processed

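Liver RNA of 12 mouse samples was hybridised to 1-colour Agilent arrays. The deposited spot intensities are Agilent Feature Extraction output (version 10.7.1.1 per the file headers, 9.5.1.1 per the submitters' processing notes), background-subtracted per the file headers. The deposited series table holds linear, uncentred intensities that, once sorted, matched between the arrays of a day to within 0.08309%, with medians of 14.8 for every array of day 2 and 13.63 for day 7, and served as an alternative within a day. The genome build of probe positions is mm9, per the file headers.

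Control spots and outlier spots were left out, spots of a probe were averaged on the log2 scale, and 12 of 55681 probes with a missing value were dropped. The 75th percentile of each array was subtracted. A gene took its brightest probe and was tested if well above background on at least 2 arrays, which left 21204 of 34794 genes. Effects were fitted with limma 3.58.1 in R 4.3.3 on all genes, two-sided, with Benjamini-Hochberg adjustment and a threshold of 0.05. DEN (4 pairs) and G0s2 siRNA (2 pairs) shared 1 fit with the pair as block, ATRA (4 pairs) and day (6 pairs) had their own, and the interaction had slide as block. Single pairs have no test. Where 1 array was not above background, a fold is a lower bound. It is taken against the lowest signal above background on that array or the level measured there, whichever is higher. For ATRA and day, p-values measure the spread between their own pairs of arrays. DEN and G0s2 siRNA share 1 estimate of that spread, taken over the pairs of both, most of which are DEN pairs. A standard error or p-value of G0s2 siRNA is therefore not a measure of its 2 pairs alone, nor is one of DEN of its 4. The interaction was not fitted on pairs, and its p-values measure the spread left between arrays within slides. The number of arrays limits the precision.

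The 35 genes and the lists were chosen with earlier results of these data known. Of the 35, those with the 8 largest effects in a comparison were named, 14 were given on every array, and others were named to spell out a count. Genes that check labels were chosen after their values were seen. In data simulated for 100 genes per fold among 21204, limma recovered 68% at 4-fold for DEN, 44% for G0s2 siRNA, 54% for ATRA, 82% for day and 0% for the interaction, and at 2-fold 36%, 4%, 4%, 53% and 0%. Some items are not reported here. Alternatives were other scalings, background correction, filters, probe rules, the series table, day-7 groups by the treatment characteristic, other blocks and leaving out each pair.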

Additional observations from a re-analysis of the deposited data

Results flagged for a closer look

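Acadm, the medium-chain acyl-CoA dehydrogenase, moved in opposite directions with DEN in the pairs without and with ATRA. The mean difference was -0.34 without ATRA and 0.34 with ATRA, in 2 pairs each and by at least 0.3 in every pair, and the difference between the means was 0.68. The limma test of the interaction gave an adjusted p = 0.9997. With the day-7 groups taken from the treatment characteristic the difference was 0.37.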

How the results depend on the processing

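No direction of a called value turned under the alternatives run. Of 2419 recomputed values 2213 were counted as the same, 25 lost and 5 gained a call. The other 176 moved in size, many with the same sign and some across 0, without gaining or losing a call. For DEN, 13 genes passed with normexp and 2 with eBayes with trend and robust, for G0s2 siRNA 4 and 1, and for the interaction 1 with trend and robust and 1 with day as the block, none of them among the 35, against 0 in each main comparison. Leaving out 1 of the 2 G0s2 siRNA pairs leaves a single pair, which has no test. The median of the 35 was then -0.08 to 0.07. Leaving out a day gave medians of the 35 from 0.07 to 0.17 for the interaction, which could not be fitted with 1 day. Leaving out a pair for day left 16 to 19 of the 35 passing, beside 8118 to 9223 of all genes. Under quantile normalization the interaction median was 0.03, and for day the percentile over detected probes gave 0.15. Single-array medians of the 35 under quantile normalization were -0.07 for DEN at day 2 and -0.02 at day 7 without ATRA, -0.11 for G0s2 siRNA at day 7, and for day 0.00 in ATRA, 0.14 in DEN, 0.15 in ATRA+DEN and 0.39 in G0s2 siRNA. With normexp they were -0.07 for DEN at day 2 without ATRA and 0.56 for day in G0s2 siRNA, and with the mean of all probes 0.49 for day in vehicle. The cause of these shifts was not tested. With normexp the means of Cyp4a14 were 2.38 for DEN and -2.84 for G0s2 siRNA. No paired analysis was possible because each group holds 1 array, as far as pairing by replicate number goes, and the pairs used in every comparison match arrays by day, treatment or both. Signal near background limits Fgf21, Vnn1, Acot2 and Cyp4a14.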
